A study of Mus musculus with 18 samples.

Results

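Secreted Wnt antagonists were examined in mouse mammary fibroblasts, as the 9 genes Sfrp1, Sfrp2, Sfrp4, Sfrp5, Frzb, Dkk1, Dkk2, Dkk3 and Wif1 among the 55486 genes of the table. The genes were chosen by family name, with earlier results of the same libraries known. The higher level of Sfrp2 in CD26+ cells in control medium was among those results and is therefore given as a description, with no test. Wnt ligands signal through Frizzled receptors together with the co-receptors Lrp5 and Lrp6, and the canonical branch of the pathway stabilizes beta-catenin. Secreted frizzled-related proteins (the Sfrp genes and Frzb, also called Sfrp3) and Wif1 bind Wnt ligands outside the cell, whereas Dickkopf proteins such as Dkk1 and Dkk2 bind Lrp5 and Lrp6. Dkk3 is a divergent family member without a settled role in Wnt signaling. Fibroblasts of many organs, the mammary gland included, are known to secrete such antagonists.

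Normal fibroblasts (NFs) had been sorted from the mammary glands of female FVB/n mice aged 8 to 16 weeks, as cells negative for EpCAM, CD49f, CD45 and CD31. Glands of several mice were pooled for a sort, and per the study's methods the donors carried floxed alleles without Cre, or a fluorescent reporter. The sort split the cells by CD26, the product of Dpp4, into CD26- and CD26+ NFs. The cultured cells received control conditioned medium or conditioned medium (CM) from tumor cells for 7 days. The tumor cells were 6 lines from WEPtn mice, a model of invasive lobular breast carcinoma in which Cre expressed in the mammary epithelium deletes floxed alleles, Cdh1 among them. The 18 libraries formed 4 groups, CD26- NFs in control medium (n = 3, replicates 1 to 3), CD26- NFs in CM (n = 6, replicates 4 to 9), CD26+ NFs in control medium (n = 3, replicates 10 to 12) and CD26+ NFs in CM (n = 6, replicates 13 to 18). From each line, the CM went to 1 culture per cell type. The sources do not say whether replicates came from separate mice, so p-values measure the spread between these libraries, which may in part be technical.

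Total counts ran from 9725723 to 14585349 per library, so that 3 counts correspond to 0.203 to 0.290 CPM (counts scaled to library size). All 10 fibroblast markers were found in each group, and their summed level was 25474 to 28344 CPM in CD26- control libraries against 76333 to 95894 CPM in CD26+ control libraries. The summed level of 12 epithelial markers was 4525 to 5045 CPM in CD26- control, 2802 to 4626 CPM in CD26- CM, 748 to 1341 CPM in CD26+ control and 667 to 1607 CPM in CD26+ CM libraries, with none of the 12 at 0. Summed endothelial markers reached at most 8.83 CPM and summed immune markers 29.7 CPM. Summed skeletal muscle markers were 64.5 to 95.7 CPM in CD26- control, 63.2 to 143 CPM in CD26- CM, 14.4 to 22.1 CPM in CD26+ control and 8.54 to 24.6 CPM in CD26+ CM libraries. Acta1 had the highest mean of the 8 markers in each group. In CD26- NFs its mean was lower with CM, at 48.4 CPM against 62.9 CPM in control medium, and Tnnt2 stood at 15.8 against 16.3 CPM. The means of the other muscle genes were higher with CM in CD26- NFs. Among them were Myog with 0.179 CPM in control medium and 5.36 CPM in CM and Myh3 with 0.589 and 14.0 CPM. The part of these genes in the CM changes of CD26- NFs below was not tested. Dpp4 had 0 to 2 counts in every control library of both cell types, 1 to 11 counts in CD26- CM and 8 to 104 counts in CD26+ CM libraries, so its transcript did not separate the sorted cells in control medium. The CD26+ library given CM of line 13-MCB-138 (replicate 18) had the lowest mean correlation with its own group (0.979), and results that change without it are given both ways. In these bulk libraries, fewer cells of a type and less RNA per cell cannot be told apart.

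Of the 9 antagonists, 6 passed the filter on low counts and were tested. Per kilobase of exon, Sfrp1 had the highest level in all 4 groups, at 52.6 ± 2.81 CPM per kb (SD, n = 3) in CD26- control and 433 ± 36.1 CPM per kb (SD, n = 3) in CD26+ control libraries. In CD26+ NFs Sfrp2 came next, with 128 ± 18.7 CPM per kb in control medium and 64.0 ± 15.0 CPM per kb in CM, ahead of Dkk3 with 14.9 ± 0.842 and 9.36 ± 2.08 CPM per kb. In CD26- NFs Dkk3 held that second place, with 7.88 ± 1.80 CPM per kb in control medium and 10.2 ± 2.08 CPM per kb in CM. The other levels per kilobase were lower and partly within one another's spread. Frzb (2.26 ± 0.448 CPM per kb) and Sfrp2 (2.09 ± 0.316 CPM per kb) were alike in CD26- control libraries, and Sfrp4 (1.60 ± 0.537), Frzb (1.57 ± 0.419) and Dkk2 (1.30 ± 0.358 CPM per kb) in CD26+ CM libraries.

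**Figure D1:**
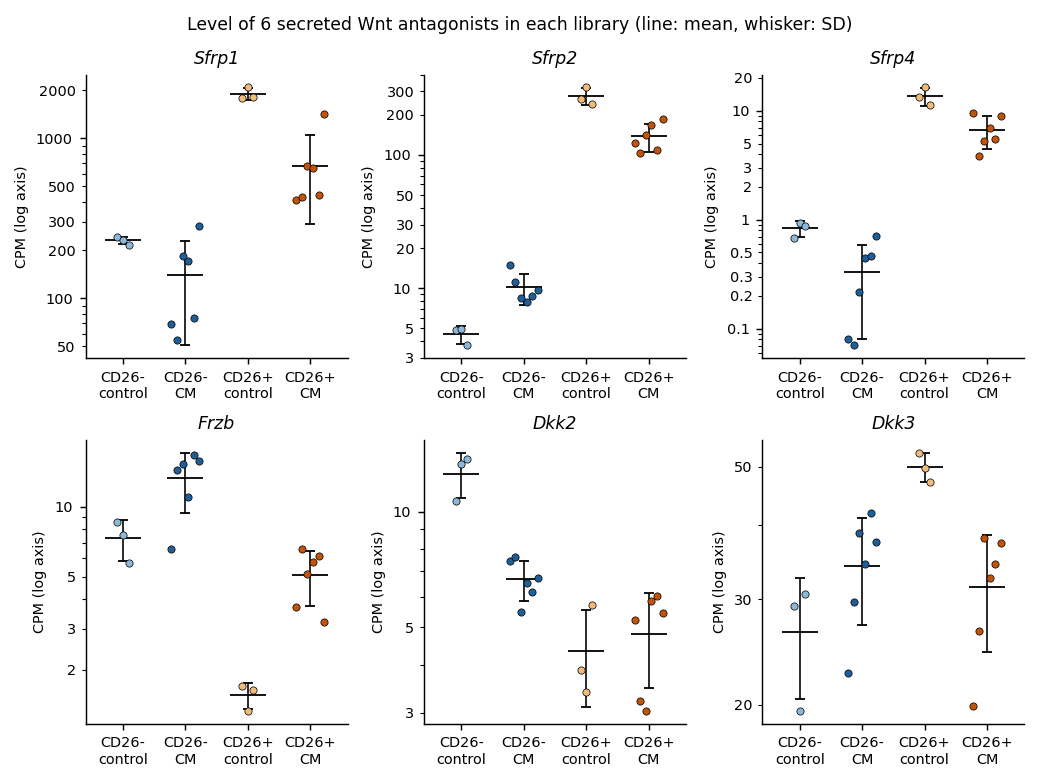
CPM of the 6 tested antagonists (log axis, scale differing by gene) in each of the 18 libraries, by group, with the mean as a line and the SD as whiskers. Sfrp1, Sfrp2 and Sfrp4 were higher in CD26+ than in CD26- libraries in both media, whereas Frzb was lower in CD26+ control libraries (1.33 to 1.70 CPM) than in CD26- control libraries (5.75 to 8.60 CPM).

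The promoter sequences of Sfrp2 and Dkk2 are shown because the CM change of these genes differed between the cell types and no GENCODE exon of either strand lies in their windows. RefSeq (GRCm38.p6) gave a window for 6 of the 9 genes, all but Sfrp1, Sfrp4 and Dkk3. The 250 bases before the start of the gene are printed 5′ to 3′ on the gene's strand, chr3:83766071-83766320 (plus strand) for Sfrp2 and chr3:132085042-132085291 (plus strand) for Dkk2. Capitals mark matches, on either strand, to 5 searched motifs: the TATA box TATAAA, the TCF/LEF core CTTTGA, the GC box GGGCGG, the E-box CACGTG and the cAMP response element TGACGTCA.
Sfrp2: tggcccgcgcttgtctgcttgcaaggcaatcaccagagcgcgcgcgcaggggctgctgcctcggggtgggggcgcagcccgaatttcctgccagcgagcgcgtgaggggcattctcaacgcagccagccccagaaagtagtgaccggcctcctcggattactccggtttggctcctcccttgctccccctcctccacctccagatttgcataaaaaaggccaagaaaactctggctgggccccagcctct
Dkk2: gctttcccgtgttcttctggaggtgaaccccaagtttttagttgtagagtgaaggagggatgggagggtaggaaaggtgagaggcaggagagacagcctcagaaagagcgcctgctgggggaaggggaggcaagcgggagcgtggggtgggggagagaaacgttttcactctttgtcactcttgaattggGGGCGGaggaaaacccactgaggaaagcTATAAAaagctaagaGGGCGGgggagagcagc
The Dkk2 window held TATAAA once, a motif found in 12.4% of the 32851 promoter windows of the same length, and GGGCGG in 2 places, a motif found in 32.7% of windows. No searched motif overlapped another in it. The Sfrp2 window held none of the 5 motifs, of which CTTTGA occurred in 13.8%, CACGTG in 6.0% and TGACGTCA in 1.5% of windows. The Sfrp2 window had 63.6% G and C with 16 CpG dinucleotides, and that of Dkk2 55.6% with 7, against medians of 52.4% and 6 over all windows. A match describes the letters only, and no binding was measured.

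The first question was how tumor CM changed these genes in each cell type. Adjusted p-values, written as FDR, come from edgeR's quasi-likelihood test with Benjamini-Hochberg adjustment over all 14273 tested genes, and a gene was taken to pass at an FDR under 0.05. In CD26- NFs 2 of the 6 tested antagonists rose (Sfrp2 and Frzb), where 7.88% of all tested genes rose, and 1 fell (Dkk2), where 7.30% fell. In CD26+ NFs 1 rose (Frzb), where 15.2% of all genes rose, and 4 fell (Sfrp1, Sfrp2, Sfrp4 and Dkk3), where 13.4% fell. The median log2 change of the 6 was -0.18 in CD26- NFs and -0.84 in CD26+ NFs, and that of all tested genes 0.01 and -0.00. The change with CM differed between the cell types for 3 of the 6, more positive in CD26+ NFs for Dkk2, where 4.53% of all genes passed in that direction, and more negative there for Sfrp2 and Dkk3, where 3.01% did. The CM changes of the cell types do not share control libraries, but each difference between them rests on all 4 groups.

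The second question was how the cell types differed in each medium. In control medium, with Sfrp2 left out because its difference was known, 3 of 5 were higher in CD26+ NFs (Sfrp1, Sfrp4 and Dkk3), where 25.0% of all genes were, and 2 were lower (Frzb and Dkk2), where 25.4% were. In tumor CM Sfrp1, Sfrp2 and Sfrp4 were higher in CD26+ NFs, where 29.3% of all genes were, and Frzb and Dkk2 lower, where 29.3% were. The median absolute log2 difference was 2.22 over these 5 in control medium, against 0.33 over all tested genes, and 1.82 over the 6 in CM, against 0.28. Sfrp4 passed the filter on low counts only through the CD26+ libraries, where it is high, so its call adds nothing to these counts, and without it the medians were 1.88 over 4 genes and 1.37 over 5. Epithelial marker levels differed between the cell types as well. Their sums did not overlap in either medium, so epithelial level and cell type cannot be fully told apart. With the mean epithelial level as a covariate 1 of the 5 passed in control medium (Sfrp4), where 4.82% of all genes were higher and 4.05% lower. In CM 2 of the 6 passed (Sfrp2 and Sfrp4), where 6.21% were higher and 4.65% lower. Without Sfrp4 the edgeR counts were 0 of 4 in control medium (3 at an unadjusted p under 0.05) and 1 of 5 in CM. In that fit the log2 differences of Sfrp1, Frzb and Dkk3 in control medium stayed about as large (3.13, -2.10 and 1.06) with wider SEs, and that of Dkk2 was -0.71.

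**Figure D2:**
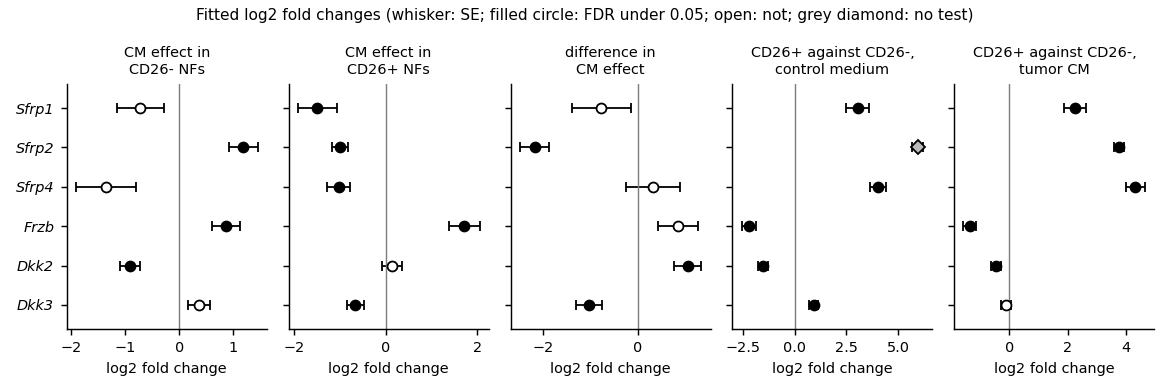
Fitted log2 fold changes of the 6 tested antagonists in the 5 comparisons, with the SE as whiskers and a zero line. Filled circles passed the FDR of 0.05, open circles did not, and the grey diamond is the control-medium difference of Sfrp2, which was not tested. Sfrp2 moved in opposite directions with CM, by 1.19 in CD26- NFs and by -1.002 in CD26+ NFs.

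Sfrp1 (ENSMUSG00000031548, GRCm38 chr8:23411502-23449632, plus strand) encodes a Wnt-binding frizzled-related protein and was the most abundant antagonist. In CD26- control libraries it stood at 241, 232 and 216 CPM, and in CD26- CM libraries it ran from 55.1 through a median of 123 to 282 CPM. In CD26+ control libraries it stood at 1788, 2076 and 1820 CPM, and in CD26+ CM libraries it ran from 413 through a median of 547 to 1412 CPM. Each CM library of CD26+ NFs lay below all controls, whereas the CD26- groups overlapped, with 5 CM libraries below the controls and 1 above. The fall with CM in CD26+ NFs was 2.83-fold (log2 -1.50 ± 0.42 (SE), FDR = 0.0133), and without replicate 18 it was log2 -1.86 with FDR = 0.000921. In CD26- NFs the log2 change was -0.72 ± 0.44 (FDR = 0.28), and leaving out each library in turn gave FDRs from 0.0828 to 0.437. The difference between the changes was -0.78 ± 0.63 (FDR = 0.48), and it passed only with the CM line as a block (-0.69, FDR = 0.0225). Sfrp1 was 8.25-fold higher in CD26+ than in CD26- NFs in control medium (log2 3.04 ± 0.55, FDR = 0.000179) and 4.82-fold higher in CM (log2 2.27 ± 0.38, FDR = 6e-05). With the epithelial covariate the log2 differences were as large, at 3.13 ± 1.01 and 2.35 ± 0.86, but the SEs were wider and the FDRs were 0.0609 and 0.0885. The summed fibroblast markers were also lower with CM in CD26+ NFs, at 38700 to 64789 CPM against 76333 to 95894 CPM, but the sum is carried by Fn1 and the collagen genes Col1a1, Col1a2 and Col3a1. The means of these 4 markers and of Vim were lower with CM, and those of Pdgfra, Pdgfrb, Dcn, Lum and Thy1 were higher, such as Dcn with 389 CPM in control medium and 3561 CPM in CM. Their part in the result was not tested.

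Sfrp2 (ENSMUSG00000027996, GRCm38 chr3:83766321-83774316, plus strand) encodes a frizzled-related protein that many fibroblasts secrete into their matrix. Its level was 4.83, 4.95 and 3.72 CPM in CD26- control libraries and 7.94 to 15.0 CPM, with a median of 9.20 CPM, in CD26- CM libraries. In CD26+ NFs it was 264, 321 and 243 CPM in control medium and 103 to 184 CPM, with a median of 132 CPM, in CM. The control and CM libraries did not overlap in either cell type, but the CM libraries were the higher ones in CD26- NFs and the lower ones in CD26+ NFs. The rise in CD26- NFs was 2.28-fold (log2 1.19 ± 0.27, FDR = 0.00677). It did not pass without replicate 3 (FDR = 0.0575), the control library with the lowest value, where the log2 change was 1.05. The fall in CD26+ NFs was 2.00-fold (log2 -1.002 ± 0.17, FDR = 0.000334). The difference between these changes was -2.19 ± 0.32 on the log2 scale (FDR = 0.00227), and it passed without each of the 18 libraries in turn. As a description, the means in control medium were 4.50 ± 0.680 and 276 ± 40.2 CPM (SD, n = 3 each), a fitted log2 difference of 5.95. In CM, which used other libraries, Sfrp2 was 13.5-fold higher in CD26+ NFs (log2 3.76 ± 0.17, FDR = 4.85e-11), at 138 ± 32.3 against 10.2 ± 2.66 CPM (SD, n = 6 each). The tests of the CM changes share the control libraries with the description above.

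Sfrp4 (ENSMUSG00000021319, GRCm38 chr13:19623104-19632994, plus strand) encodes a further Wnt-binding frizzled-related protein and was near the limit of counting in CD26- NFs. Its counts there were 7, 11 and 13 in control medium and 1, 1, 3, 6, 6 and 8 in CM, and 0.831 ± 0.137 CPM (SD, n = 3) and 0.332 ± 0.252 CPM (SD, n = 6) on the scaled level. In CD26+ NFs it was 13.5, 16.4 and 11.2 CPM in control medium and 3.82 to 9.62 CPM, with a median of 6.23 CPM, in CM. All 6 CD26+ CM libraries lay below the controls. The fall in CD26+ NFs was 2.05-fold (log2 -1.03 ± 0.25, FDR = 0.00505). In CD26- NFs the log2 change was -1.36 ± 0.56 and did not pass (FDR = 0.107), whereas DESeq2 gave an adjusted p of 0.027. No difference between the changes was detectable at this depth (log2 0.33 ± 0.58, FDR = 0.776). Sfrp4 was 16.1-fold higher in CD26+ NFs in control medium (log2 4.01 ± 0.39, FDR = 3.39e-07) and 20.2-fold higher in CM (log2 4.34 ± 0.34, FDR = 1.36e-08), and with the epithelial covariate these FDRs were 0.000806 and 0.000201. Since the gene passed the filter only through its CD26+ libraries, these tests are conditioned on the difference, and a fit of every gene with at least 1 count gave log2 4.02 (FDR = 4.26e-09) and 4.35 (FDR = 5.29e-11). The denominators of these folds are a few counts per library.

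Frzb (ENSMUSG00000027004, GRCm38 chr2:80411970-80447625, minus strand), first isolated from cartilage, was the frizzled-related gene with the lower level in CD26+ NFs, and it rose with CM in both cell types. Its level was 8.60, 7.59 and 5.75 CPM in CD26- control libraries and 6.56 to 16.7 CPM, with a median of 14.7 CPM, in CD26- CM libraries. It was 1.70, 1.33 and 1.63 CPM in CD26+ control libraries and 3.21 to 6.59 CPM, with a median of 5.46 CPM, in CD26+ CM libraries. All CD26+ CM libraries were above their controls, and in CD26- NFs 5 of 6 were, the exception being CM of line 13-MCB-17. Frzb rose 3.28-fold with CM in CD26+ NFs (log2 1.71 ± 0.33, FDR = 0.00107). The rise in CD26- NFs was 1.82-fold (log2 0.87 ± 0.25, FDR = 0.0287) and passed in only 3 of 9 fits that left out a library, with FDRs up to 0.164, while log2 changes stayed between 0.71 and 1.00. The difference between the changes did not pass (log2 0.85 ± 0.42, FDR = 0.222). In control medium Frzb was 4.66-fold lower in CD26+ than in CD26- NFs (log2 -2.22 ± 0.36, FDR = 5.78e-05). In CM it was 2.59-fold lower (log2 -1.37 ± 0.21, FDR = 2.08e-05), with the lowest CD26- and the highest CD26+ library at nearly the same value. With the epithelial covariate these differences stayed about as large, at log2 -2.10 in control medium and -1.27 in CM, with FDRs of 0.0511 and 0.12, and the rise in CD26- NFs was 0.90 with FDR = 0.0683.

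Dkk2 (ENSMUSG00000028031, GRCm38 chr3:132085292-132180304, plus strand) encodes a Dickkopf protein that binds Lrp6. It stood at 10.6, 13.3 and 13.7 CPM in CD26- control libraries and at 5.48 to 7.64 CPM, with a median of 6.62 CPM, in CD26- CM libraries, with no overlap. In CD26+ NFs it was 3.88, 3.40 and 5.71 CPM in control medium and 3.04 to 6.03 CPM, with a median of 5.33 CPM, in CM, and these groups overlapped. Dkk2 fell 1.89-fold with CM in CD26- NFs (log2 -0.92 ± 0.19, FDR = 0.00405), and this passed without each of the 9 libraries in turn, with FDRs up to 0.038. In CD26+ NFs the log2 change was 0.14 ± 0.22 (FDR = 0.667). The difference between the changes was 1.06 ± 0.29 (FDR = 0.0335), but it passed in only 10 of 18 fits without a library, with FDRs up to 0.121 and log2 values from 0.90 to 1.30. The libraries without which it did not pass were replicates 2, 3, 8, 10, 11, 13, 16 and 17. In control medium Dkk2 was 2.90-fold lower in CD26+ NFs (log2 -1.54 ± 0.23, FDR = 3.11e-05), or log2 -0.71 with FDR = 0.313 under the epithelial covariate. In CM it was 1.39-fold lower (log2 -0.48 ± 0.17, FDR = 0.0233). This did not pass without replicate 5, 14 or 15 (FDRs up to 0.0586), and turned to 0.25 with FDR = 0.699 under the epithelial covariate. Summed pericyte markers differed between these groups as well, with 6 of 6 markers found. The sums were 159.6 to 173 CPM in CD26- control and 56.9 to 109 CPM in CD26- CM libraries. In CD26+ NFs they were 58.9 to 77.8 CPM in control medium and 59.3 to 98.3 CPM in CM. Mcam and Cspg4 carry the sum in control medium, with means of 93.4 and 51.8 CPM in CD26- and 24.5 and 20.2 CPM in CD26+ libraries. The means of Notch3, Kcnj8 and Abcc9 were higher in CD26+ control libraries, such as Notch3 with 18.2 against 12.8 CPM. In CD26- CM libraries Notch3 stood at 12.4 CPM and Mcam at 33.4 CPM. The part of these markers in the Dkk2 result was not tested.

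Dkk3 (ENSMUSG00000030772, GRCm38 chr7:112116017-112159057, minus strand) was 29.3, 19.5 and 30.6 CPM in CD26- control libraries and 22.6 to 41.8 CPM, with a median of 35.8 CPM, in CD26- CM libraries. It was 52.8, 49.9 and 47.1 CPM in CD26+ control libraries and 19.9 to 38.0 CPM, with a median of 33.5 CPM, in CD26+ CM libraries. The CD26- groups overlapped, and the CD26+ CM libraries were all below their controls. Dkk3 fell 1.59-fold with CM in CD26+ NFs (log2 -0.67 ± 0.19, FDR = 0.0132), and without replicate 10 the FDR was 0.0525. In CD26- NFs the log2 change was 0.36 ± 0.20 (FDR = 0.234). The difference between the changes was -1.03 ± 0.28 (FDR = 0.0314) and did not pass without replicate 2, 10, 11 or 12, with FDRs up to 0.0856. Dkk3 was 1.88-fold higher in CD26+ NFs in control medium (log2 0.91 ± 0.23, FDR = 0.00266), and under the epithelial covariate the log2 difference was 1.06 with FDR = 0.141. In CM the cell types were close, at 31.4 ± 6.97 and 34.1 ± 6.98 CPM (SD, n = 6 each). The log2 difference there was -0.12 ± 0.16 (FDR = 0.541), or -0.13 with FDR = 0.0492 when the CM line was a block.

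The remaining genes were at or near the limit of counting and were not tested. Wif1 (ENSMUSG00000020218, GRCm38 chr10:121033960-121100650, plus strand), a Wnt-binding inhibitor outside the frizzled-related family, had 47 counts in all. It had 1, 5 and 5 counts in CD26- control and 1 to 6 counts in CD26- CM libraries, and 1 count in each CD26+ control library and 0 to 4 counts in CD26+ CM libraries. Dkk1 (ENSMUSG00000024868, GRCm38 chr19:30545863-30549665, minus strand), the founding Dickkopf antagonist and itself a target of beta-catenin, had 14 counts in all and at most 3 in a library. Sfrp5 (ENSMUSG00000018822, GRCm38 chr19:42197971-42202252, minus strand) had 3 counts in all, 2 of them in 1 CD26+ control library. With 3 counts worth up to 0.290 CPM, Dkk1 and Sfrp5 did not exceed 3 counts in any library, and no difference between groups was read from them.

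The next question was whether the 6 tumor lines acted alike. Both cell types received each CM, and the values were read line by line (the test across lines was added after these values had been seen). With CM of 10-SJK-221, 13-MCB-17 and 13-MCB-90, Sfrp1 was 55.1, 69.6 and 75.2 CPM in CD26- NFs, or 24.0%, 30.3% and 32.7% of the control mean. With CM of the same lines it was 431, 413 and 441 CPM in CD26+ NFs, or 22.8%, 21.8% and 23.3% of the control mean. With CM of 13-MCB-44 and 18-MCB-12 it was 172 and 183 CPM in CD26- NFs and 653 and 672 CPM in CD26+ NFs. With CM of 13-MCB-138 it was 282 CPM in CD26- NFs, 123% of the control mean, and 1412 CPM in CD26+ NFs, 74.5% of the control mean. The same 3 lines thus gave the lower values in both cell types, and since the values fell into separate sets no correlation over the 6 lines is given for Sfrp1.

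In a fit of the 12 CM libraries with additive terms for cell type and line, the line effect passed for Sfrp1 and Dkk3 of the 6 antagonists, where 6.56% of 13344 tested genes passed. For Sfrp1 the fitted range over lines was 1.98 on the log2 scale (FDR = 0.00469), and it passed with each line left out, with FDRs from 0.00542 to 0.0161. Without 13-MCB-138 that range was 1.14. For Dkk3 the range was 0.85 (FDR = 0.00456), and without 13-MCB-17, whose CM gave the lowest values in both cell types (22.6 and 19.9 CPM), it was 0.45 with FDR = 0.0774. Over the 6 lines log2 levels of Dkk3 in the 2 cell types correlated with Pearson's r = 0.956 (exact two-sided permutation p = 0.0111, Benjamini-Hochberg adjusted over the 6 antagonists 0.0333) and Spearman's rho = 0.829 (exact permutation p = 0.0583, adjusted 0.175). Without the 2 lines farthest from the median r was 0.35, so the relation rests on those lines. For Sfrp2, Sfrp4, Frzb and Dkk2 r lay between -0.37 and 0.35 and no exact permutation p of Pearson's r over the 6 lines was under 0.471, and over all tested genes the median r was 0.31. Line effects of these 4 did not pass (FDRs from 0.232 to 0.645), although that of Frzb had FDR = 0.0319 without 13-MCB-138. The opposite direction of Sfrp2 held line by line, at 177% to 334% of the control mean in CD26- NFs and 37.4% to 66.9% in CD26+ NFs.

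**Figure D3:**
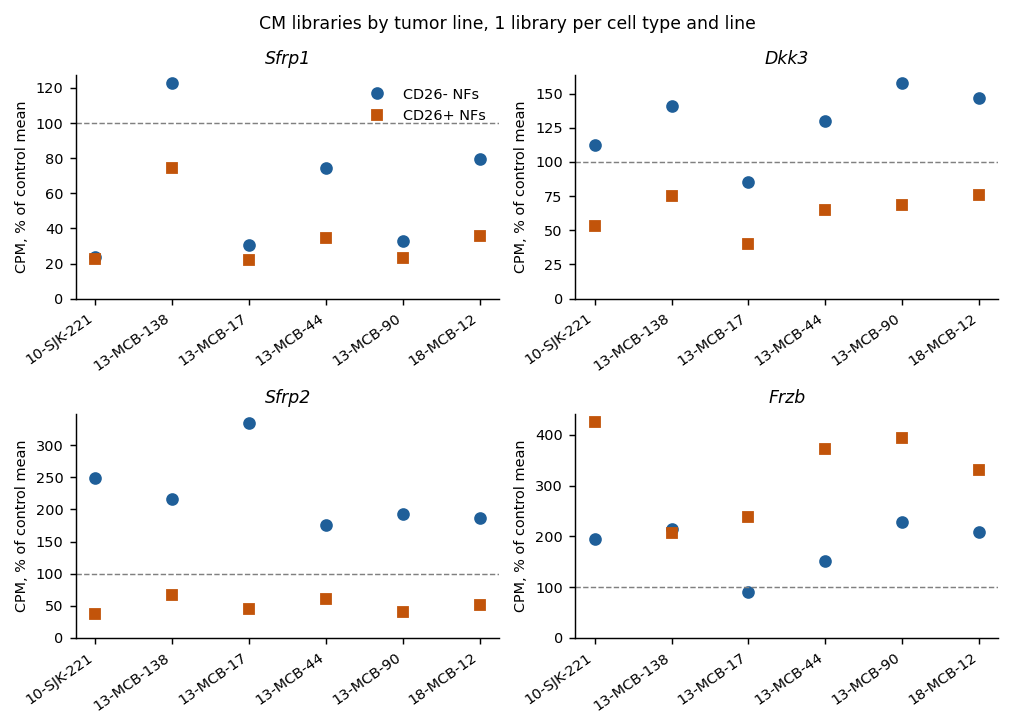
Levels in the 12 CM libraries as a percentage of the mean of the 3 control libraries of the same cell type, by tumor line, for Sfrp1, Dkk3, Sfrp2 and Frzb, with a dashed line at 100%. Sfrp1 was lowest with the same 3 lines in both cell types, and all Sfrp2 values were above 100% in CD26- NFs (177% to 334%) and below it in CD26+ NFs (37.4% to 66.9%).

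Other genes of the pathway were read from the same fit for 6 lists, and counts are given beside the share of all tested genes above. Of 10 further Wnt inhibitors, not all of them secreted, 5 were tested. In control medium 4 of these 5 were higher in CD26+ NFs, where 25.0% of all genes were, and all 5 in CM, where 29.3% were. Under the epithelial covariate 3 of the 5 were higher in control medium, where 4.82% of all genes were, and 4 in CM, where 6.21% were. Igfbp4 passed in neither. Draxin, a secreted Lrp-binding guidance protein, stood at 1.76 ± 0.636 CPM in CD26- control and 102 ± 13.8 CPM in CD26+ control libraries (SD, n = 3 each), a log2 difference of 5.90 ± 0.47 (FDR = 4.44e-08). Trabd2b, a protease that inactivates Wnt ligands, stood at 100.3 ± 8.25 and 423 ± 39.8 CPM (log2 2.08 ± 0.12, FDR = 2.14e-09). With CM 3 of the 5 fell in CD26+ NFs, where 13.4% of all genes did, among them Trabd2b to 211 ± 22.4 CPM (log2 -1.005 ± 0.10, FDR = 1.67e-06) and Igfbp4, a binding protein of insulin-like growth factors with reported Wnt-inhibiting activity, from 1380 ± 142 to 222 ± 214 CPM (log2 -2.64 ± 0.50, FDR = 0.000906). In CD26- NFs Draxin rose (log2 1.69 ± 0.52, FDR = 0.0347) and Apcdd1 fell (log2 -0.62 ± 0.18, FDR = 0.029). Neither call was firm. Draxin did not pass without replicate 1, 2, 3, 6 or 9 (FDRs up to 0.174). Apcdd1 did not pass without replicate 2, 3, 5, 6 or 8 (FDRs up to 0.134). With the epithelial covariate 0 of the 5 passed for CM in CD26- NFs, where 4.02% of all genes rose and 3.17% fell. The change of Trabd2b differed between the cell types (log2 -0.78 ± 0.14, FDR = 0.00542), and with the CM line as a block so did those of Apcdd1, Draxin and Igfbp4.

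Wnt ligands had 12 tested genes of 19. In CM 4 of the 12 were lower in CD26+ NFs and 1 was higher, where 29.3% of all genes were lower and 29.3% higher. In control medium 7 of the 12 were lower in CD26+ NFs, where 25.4% of all genes were, and 1 was higher, where 25.0% were. Wnt7a was 41.6 ± 7.07 CPM in CD26- control and 4.16 ± 2.09 CPM in CD26+ control libraries (log2 -3.33 ± 0.36, FDR = 8.05e-07) and Wnt7b 154 ± 23.5 and 34.1 ± 9.35 CPM (log2 -2.17 ± 0.28, FDR = 4.98e-06). Both ligands are known from mammary epithelium, and epithelial marker levels differed in the same direction. Their part in these differences was not tested, and epithelial level and cell type cannot be fully told apart. With the epithelial covariate the difference of Wnt7b was -0.72 (FDR = 0.172), and that of Wnt7a was -1.70 (FDR = 0.0496). In that fit 1 of the 12 was lower (Wnt7a), where 4.05% of all genes were, and 1 was higher (Wnt16), where 4.82% were. Wnt16 was the ligand that was higher, at 0.355 ± 0.0273 and 6.72 ± 0.999 CPM (log2 4.21 ± 0.37, FDR = 1.14e-07). It passed the filter only through the CD26+ libraries, and in a fit of every gene with at least 1 count the log2 difference was 4.22 (FDR = 2.77e-09). With CM 3 ligands fell in each cell type, where 7.30% of all genes fell in CD26- and 13.4% in CD26+ NFs, and none rose, where 7.88% and 15.2% did. Wnt2 fell in CD26- NFs (log2 -1.22 ± 0.23, FDR = 0.00273) and in CD26+ NFs (log2 -0.72 ± 0.23, FDR = 0.0268). Wnt5a, a mostly non-canonical ligand, also fell in both (log2 -0.42 and -0.59, FDRs of 0.0455 and 0.00371). The third was Wnt10b in CD26- NFs (log2 -1.26 ± 0.36, FDR = 0.0248) and Wnt16 in CD26+ NFs (log2 -0.92 ± 0.22, FDR = 0.00463). Wnt10b was low, with means of 0.843 CPM in CD26- control and 0.347 CPM in CD26- CM libraries. Wnt10b, and Wnt2 in CD26+ NFs, are named after their values had been seen. Neither call held throughout, since Wnt10b did not pass without replicate 1, 3 or 6 (FDRs up to 0.11), was too low to be tested without replicate 7 and did not pass with DESeq2 (adjusted p of 0.0561), and Wnt2 in CD26+ NFs did not pass without replicate 10, 11, 12, 14 or 17 (FDRs up to 0.11). The call of Wnt5a in CD26- NFs was lost without replicate 1, 2, 3, 4, 5, 6 or 8, with FDRs up to 0.157. With the epithelial covariate 1 of the 12 (Wnt2) fell with CM in CD26- NFs, where 3.17% of all genes did. No ligand of the 12 passed in the difference between the changes, and 1 did when the CM line was a block (Wnt11, named after its value had been seen).

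Among receptors, 9 Frizzled genes of 10 were tested, and in control medium CD26+ NFs had 4 of them higher and 2 lower, where 25.0% and 25.4% of all genes were. Fzd1 was higher (336 ± 23.6 against 108 ± 0.987 CPM, log2 1.64 ± 0.14, FDR = 1.12e-07) and Fzd6 lower (15.8 ± 2.05 against 66.3 ± 6.53 CPM, log2 -2.07 ± 0.23, FDR = 9.83e-07). Of 7 tested co-receptor and Dkk receptor genes 4 were higher and 1 lower in CD26+ control libraries, beside the same shares of all genes. Lrp6, the co-receptor that Dkk proteins bind, was higher (log2 0.63 ± 0.12, FDR = 0.000198) and Lrp5 lower (log2 -0.43 ± 0.11, FDR = 0.00235). With the epithelial covariate Fzd6 (log2 -0.60, FDR = 0.0729), Lrp6 (log2 0.67, FDR = 0.073) and Lrp5 (log2 -0.16, FDR = 0.671) did not pass. In that fit 2 Frizzled genes and 1 co-receptor gene (Ror2) were higher and none of either list was lower, where 4.82% and 4.05% of all genes were. Lrp5 rose with CM in CD26+ NFs (log2 0.35 ± 0.09, FDR = 0.0085, or 0.0534 without replicate 12), and its change differed between the cell types at the edge of the threshold (log2 0.43 ± 0.13, FDR = 0.0494). It passed there in 4 of 18 fits that left out a library, with FDRs up to 0.127, and did not pass with the epithelial covariate. Of 7 tested R-spondin, receptor and ligase genes 3 fell with CM in CD26- NFs, where 7.30% of all genes did. In CD26+ NFs 2 fell and 1 rose, where 13.4% of all genes fell and 15.2% rose. The R-spondin receptors Lgr4 and Lgr5 fell in both. Lgr4 had log2 changes of -0.94 and -0.94 (FDRs of 0.000371 and 6.94e-05). Lgr5 had log2 changes of -2.29 and -2.22 (FDRs of 0.00666 and 0.000308) but was low. Its level was 2.67 ± 0.721 CPM in CD26- control and 0.538 ± 0.393 CPM in CD26- CM libraries (SD). In CD26+ NFs it was 8.91 ± 2.17 CPM in control medium and 1.92 ± 1.22 CPM in CM.

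The last list held target genes of beta-catenin, of which 8 were tested. Axin2, a widely used readout of the canonical pathway, was 11.1 ± 0.813 CPM in CD26- control, 10.6 ± 2.68 CPM in CD26- CM, 7.44 ± 0.182 CPM in CD26+ control and 9.74 ± 2.97 CPM in CD26+ CM libraries. It passed in none of the 5 comparisons (edgeR FDRs from 0.0688 to 0.858). With the epithelial covariate, however, it passed in 2 of them. The fitted rise with CM in CD26+ NFs was log2 0.52 (FDR = 0.0208). The fitted difference between the cell types in CM was log2 1.00 (FDR = 0.028), against -0.11 without the covariate. The mean level in CM was not higher in CD26+ NFs, and epithelial level and cell type cannot be fully told apart there. With CM 2 of the 8 rose in each cell type, where 7.88% of all genes rose in CD26- and 15.2% in CD26+ NFs. None fell, where 7.30% and 13.4% did. With the epithelial covariate 4 of the 8 rose in CD26+ NFs (Axin2, Ccnd1, Nkd2 and Tcf7), where 15.2% of all genes rose. In CD26- NFs 2 rose in that fit, where 4.02% did. Without the covariate the calls were as follows. Nkd2 rose in both (log2 0.81 ± 0.18 in CD26- NFs, FDR = 0.00677, and 1.58 ± 0.19 in CD26+ NFs, FDR = 1.32e-05), Myc in CD26- NFs (log2 0.50 ± 0.11, FDR = 0.00693, or 0.0607 without replicate 3) and Ccnd1, the gene of cyclin D1, in CD26+ NFs (log2 1.32 ± 0.26, FDR = 0.00104). In control medium 4 of the 8 had lower levels where cells were CD26+, where 25.4% of all genes did, and 2 had higher levels, where 25.0% did, with Ccnd1 at 82.8 ± 15.5 CPM there against 327 ± 27.0 CPM (log2 -1.98 ± 0.29, FDR = 1.94e-05). With the epithelial covariate 1 of the 8 was lower (Ccnd1, log2 -1.84, FDR = 0.0487) and 1 higher (Nkd1), where 4.05% and 4.82% of all genes were. None of the 8 passed in the difference between the changes, and 3 did when the CM line was a block (Ccnd1, Myc and Nkd2). Over all 6 lists 2 of 48 tested genes passed there (1 higher, 1 lower), where 4.53% of all genes were higher and 3.01% lower, and 10 did with the block (5 higher, 5 lower), where 9.42% and 8.21% were. Without the block, leaving out single libraries gave 1 to 6 genes, and the 6 came without replicate 18.

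**Figure D4:**
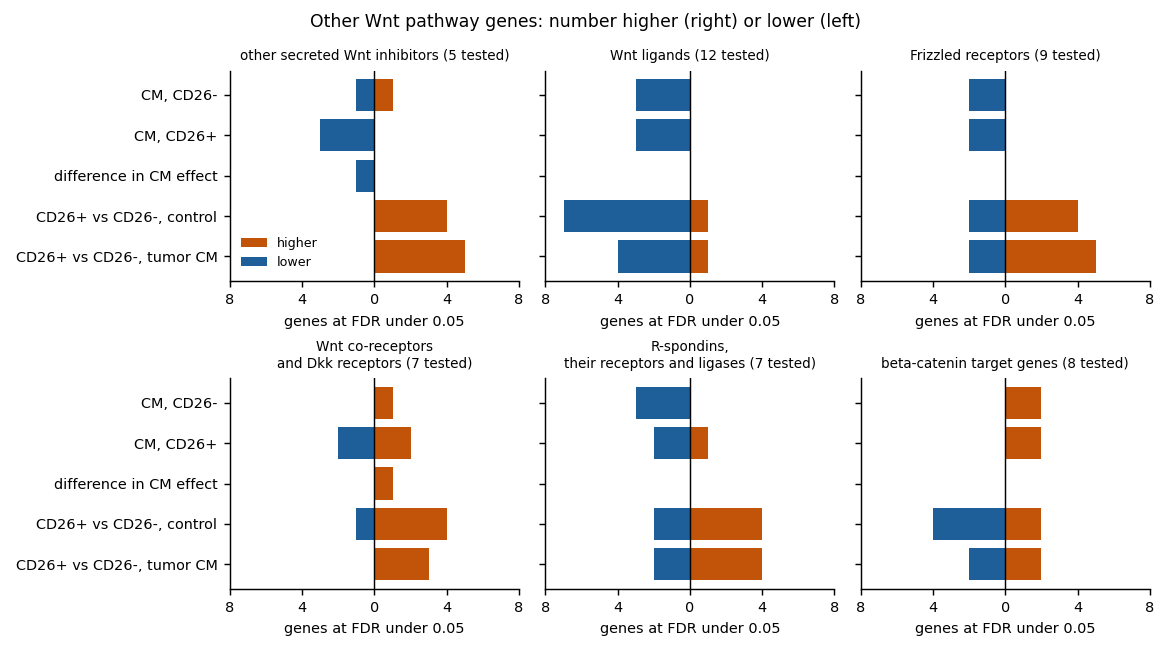
Number of genes of each of 6 Wnt pathway lists that passed the FDR of 0.05 in 5 comparisons, to the right where higher and to the left where lower (for CM, higher or lower with CM; for the difference in CM effect, higher or lower in CD26+ NFs). Of 12 tested ligands 7 were lower in CD26+ control libraries, where 25.4% of all genes were. Of 5 further inhibitors, headed secreted though not all are, 4 were higher there, where 25.0% of all genes were. With the epithelial covariate, which is not drawn, 1 ligand was lower and 3 inhibitors were higher, where 4.05% and 4.82% of all genes were.

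The genes most like each antagonist across the 18 libraries were found by Pearson's r of log2 CPM among 11117 candidates. Since all 18 libraries enter, these r mostly reflect the 4 groups, and they are a description. Sfrp1 was most like P4ha3 (r = 0.988), Kdelr2 (r = 0.987) and Sec16b (r = 0.986). Sfrp2 was most like Ski (r = 0.985), Mogs (r = 0.983) and Sned1 (r = 0.983), and Sfrp4 was most like Psd3 (r = 0.982), Itm2a (r = 0.978) and Col6a1 (r = 0.977). Frzb was most like Cited2 (r = 0.960), Shisa2 (r = 0.955) and Lif (r = 0.955). The likeness was looser for Dkk2, with Pik3c2b (r = 0.914), Casp8 (r = 0.907) and Tmem68 (r = 0.893), and for Dkk3, with Brinp3 (r = 0.844), Pwwp3b (r = 0.834) and Pnn (r = 0.820). No antagonist was among another's 3, since the 9 genes themselves were left out.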

How the data were processed

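Polyadenylated RNA of 18 libraries was sequenced single-end (65 cycles) after stranded library preparation. The authors deposited raw counts per Ensembl gene, and their processing notes name HISAT2 2.1.0, HTSeq and GRCm38. The strand setting of the counting was not given in the sources used here. No column was left out. A row without a gene held 0 counts. Each library was tested for copies (lowest chi-square per degree of freedom within a group 3.22).

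Counts were filtered with filterByExpr by group, which kept 14273 genes and, at the lowest, 99.9% of a library's counts, scaled with TMM and tested with edgeR 4.0.16 (R 4.3.3, glmQLFit and glmQLFTest) in 1 model of 4 groups and 5 comparisons. The common biological coefficient of variation was 0.117. CPM are relative to TMM-scaled totals, and log2 CPM used a prior count of 2. A level per kilobase divides CPM by the merged exon length in GENCODE vM21, whose coordinates of the 9 genes match the table. Limits from 3 counts cover counting error only. The procedure was tested on simulated data. Members, lists and tests were chosen with earlier results of these data known. The named pathway genes are those past the FDR in the difference in CM effect, up to 2 higher and 2 lower with the smallest p at a group mean of at least 5 CPM in the other comparisons, and Axin2.

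Residuals from the group means were checked for pairing by line. The cell types correlated with r from 0.247 to 0.406 in all 6 lines, and each line matched itself best. The line was therefore a replicate block in an alternative. Further fits used upper-quartile or RLE scaling, DESeq2 1.42.0, all genes with at least 1 count, an epithelial covariate, the groups of a comparison alone or a log2 limit of 2, or left out each library. The line effect fit was added after its values had been seen. The full genotype of the donors and of the tumor model is not reported here.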

Additional observations from a re-analysis of the deposited data

Results flagged for a closer look

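The level of Sfrp1 in the CD26+ culture of replicate 18 (CM of 13-MCB-138) was 1412 CPM, far from the nearest other library of that group at 672 CPM, a gap of 0.741 of the group's range. Levels of members were screened in 14 groups in this way, and chance flags about 1 in 20. The change with CM differed between CD26+ and CD26- NFs by -2.19 on the log2 scale for Sfrp2 (edgeR FDR = 0.00227), by 1.06 for Dkk2 (FDR = 0.0335) and by -1.03 for Dkk3 (FDR = 0.0314). Sfrp2 passed with each library left out, whereas Dkk2 did not pass in 8 and Dkk3 in 4 of 18 such fits.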

How the results depend on the processing

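Depth limits Sfrp4 in CD26- NFs, Wif1, Dkk1 and Sfrp5, and the groups of 3 control libraries limit each comparison with control medium. With a log2 limit of 2 beside the FDR, 0 antagonists passed for CM in CD26- NFs and 0 for CM in CD26+ NFs. Between the cell types 3 passed in each medium (Sfrp2 left out in control medium), and 1 passed in the difference in CM effect. Without Sfrp4, which passed the filter only through CD26+ libraries, 2 passed between the cell types in each medium. The share of all tested genes past this limit was not computed. Under the epithelial covariate 1 of 5 passed between the cell types in control medium and 2 of 6 in CM (0 of 4 and 1 of 5 without Sfrp4), and the Dkk2 difference in CM turned to 0.25. Leaving out each library gave 1 to 3 antagonists for CM in CD26- NFs (1 without replicate 3) and 1 to 3 for the difference in CM effect (1 without replicate 2, 10 or 11). With only the groups of the comparison in the fit, Sfrp4 in CD26- NFs was filtered out and has no value for CM. The correlation of Dkk2 over lines was -0.94 without 2 lines. The replicate block by CM line added Sfrp1 to the difference in CM effect (-0.69) and Dkk3 to the comparison in CM (-0.13), and it changed no other call of the 6 antagonists. The other Wnt pathway genes were read under the same alternatives after the data had been seen. For them the log2 limit, again without a share of all genes, left 1 gene for CM in CD26- NFs and 2 for CM in CD26+ NFs. It left 11 and 8 between the cell types in control medium and in CM, and 0 where CM changes were compared. For these genes the epithelial covariate left 8 for CM in CD26- NFs, where 4.02% of all genes were higher and 3.17% lower. It left 10 between the cell types in control medium, where 4.82% were higher and 4.05% lower. In CM it left 16 between the cell types, where 6.21% were higher and 4.65% lower, and it turned Axin2 there to 1.00. For the difference, of the settings named next, the share of all genes was computed only with the block, at 9.42% higher and 8.21% lower. The number of pathway genes there was 1 with upper-quartile scaling, 1 without the filter, 5 with DESeq2 and 10 with the block. Leaving out each library gave 6 to 16 of them for CM in CD26- NFs (fewest without replicate 3 or 6), 11 to 19 for CM in CD26+ NFs (fewest without replicate 11 or 12) and 1 to 6 in the difference. Over the fitted log2 changes of the 6 antagonists, without Sfrp2 in control medium, 463 alternatives kept their side of the threshold, 30 no longer passed, 3 newly passed and 1 called value turned. The sign also changed in 2 alternatives in which neither value passed, 1 for Dkk2 with CM in CD26+ NFs and 1 for Dkk3 between the cell types in CM. The cause of these changes was not tested.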
